A study of Caenorhabditis elegans with 8 samples.

Results

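The genes described here are 10 genes of body wall muscle in Caenorhabditis elegans: unc-54, myo-3 and unc-15 of the thick filament, act-1, act-4, lev-11, unc-27, unc-60 and unc-87 of the thin filament, and the integrin gene pat-3. They were chosen by name out of 19983 protein-coding genes. Each was searched for regions of RNA immunoprecipitation followed by sequencing (RIP-seq) that the authors listed as specific to worms with FLAG-tagged MSTR-1. Of the 10 genes, 4 carried a region: unc-15, unc-60, unc-87 and pat-3. The other 6 carried none: unc-54, myo-3, act-1, act-4, lev-11 and unc-27. The share in all protein-coding genes was 4.77%.

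The tested strain, WD656, carries an insertion of 3 FLAG copies in the gene of MSTR-1 (F22D6.2, allele on49), and the wild-type strain N2 expresses no FLAG. Affinity purification asks which RNAs associate with MSTR-1. The 8 samples were 2 tagged RIP, 2 tagged input, 2 N2 RIP and 2 N2 input samples, all from lysates of whole young adults kept at 25 °C and crosslinked for 30 min with 2% formaldehyde. The replicates are called biological, with no further detail on the cultures, and the worms of the tagged groups are a single strain.

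Body wall muscle moves the worm by sliding myosin thick filaments along actin thin filaments. Tropomyosin and troponin on the thin filament make contraction depend on calcium. Integrins in the muscle membrane anchor the filaments, through dense bodies and M-lines, to the basement membrane outside the cell. Many of these genes were found through mutants that are uncoordinated (unc) or paralysed and arrested as embryos at the 2-fold stage (pat).

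The deposited data are 1 list of 1207 regions with 1 set of values each. The fold is the authors' read pileup over control at the region's summit, its highest point, and q is their adjusted p-value. All region names carry the tagged strain and RIP 2, read here as replicate 2, which no source used here states. No value has a replicate error, no test between samples could be run, and the depth of the samples is unknown. The library used as control is not named in the sources used here. The whole list had a median fold of 2.10 (range 1.11 to 5.66) and a median −log10 q of 5.41 (lowest 1.30). The tagged protein's own gene, mstr-1, had 1 region with a fold of 2.26. In whole-worm RNA, fewer muscle cells and less RNA per cell cannot be told apart.

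The strongest of the 5 regions lay in pat-3, and the other 4 were of low or middling strength for this list. The 5 folds were 3.38 in pat-3, 2.28 in unc-60, 1.81 and 1.79 in unc-87 and 1.58 in unc-15, with a median of 1.81 against 2.10 over all 1207 regions. By fold, only the regions of pat-3 and unc-60 were above the median of the list. By −log10 q, 4 of the 5 regions were below the median of 5.41, all but that of pat-3. The pat-3 region lay in the densest stretch of regions in the genome. Leaving that stretch out removes pat-3 by construction, and 3 of the 10 genes with 4 regions then remained. Each of the 5 regions lay whole inside its gene and overlapped no other protein-coding gene. The 10 genes lie on chromosomes I, III, V and X, and the regions on I, III and V.

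**Figure D1:**
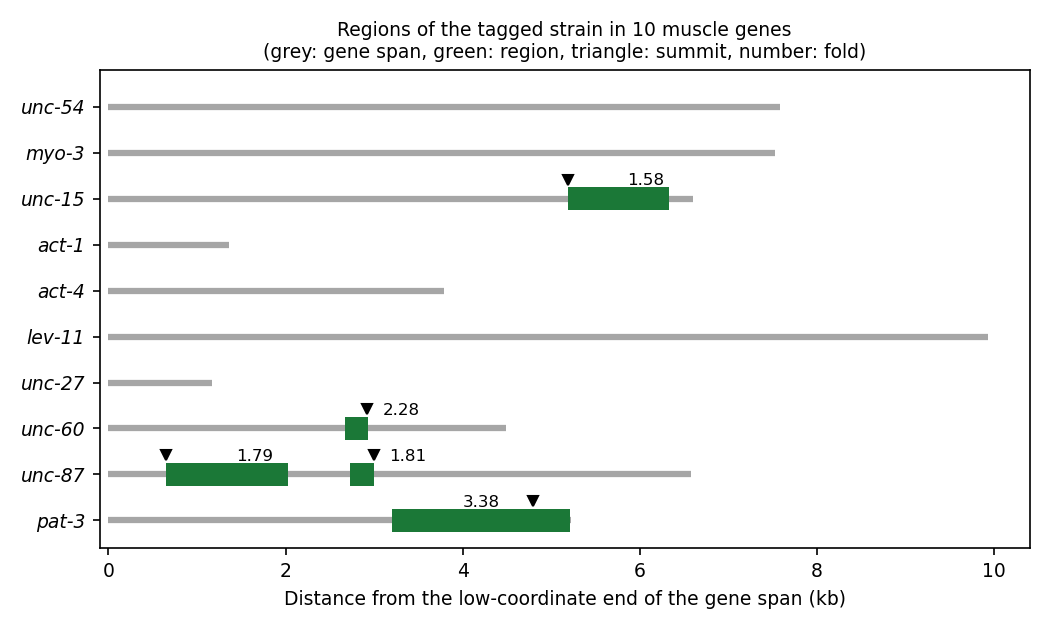
Map of the 10 genes, 1 per line, with distance from the low-coordinate end of the gene span in kb on the horizontal axis. Grey lines are gene spans, green boxes are regions, triangles mark summits and numbers give the authors' fold; 4 genes hold 5 regions and 6 genes hold none.

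Of the thick filament genes, unc-15 carried a region and both myosin genes did not. unc-15 (F07A5.7), on chromosome I at 7376604 to 7383197 of WBcel235, encodes paramyosin, the core protein of invertebrate thick filaments. Its region of 1140 bp at 7381789 to 7382928 covered 17.3% of the span and ended 269 bp before the high end. The summit held 52 reads (95% Poisson interval 38.8 to 68.2) against a control level of 32.6 reads, which gave the fold of 1.58 and a −log10 q of 1.55. By fold it ranked 1061st of 1207, and 58 regions had a lower −log10 q. This was the weakest of the 5 regions on both measures, although its pileup was the highest.

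The 2 myosin heavy chain genes had no region anywhere in their spans. unc-54 (F11C3.3) encodes the major myosin heavy chain of body wall muscle and spans 7582 bp at chromosome I, 14855901 to 14863482. The nearest region lay in fld-1, 737.8 kb towards lower coordinates, and no region was listed between unc-54 and the high end of the chromosome. myo-3 (K12F2.1) encodes the myosin of the central part of the thick filament and spans 7528 bp at chromosome V, 12226816 to 12234343. Its nearest region, 28.4 kb away, was shared by ogdh-2 and lon-3 and had a fold of 1.69. Both spans are longer than that of unc-15 (6594 bp).

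Among the thin filament genes, those of actin, tropomyosin and troponin I had no region, and unc-60 and unc-87 had 1 and 2 regions. act-1 (T04C12.6; chromosome V, 11081052 to 11082415) and act-4 (M03F4.2; chromosome X, 4960621 to 4964413) encode actins. The neighbouring actin genes act-2 and act-3 on chromosome V had none either. The nearest region to act-1 was in atp-5, 40.6 kb away with a fold of 2.44, and the nearest to act-4 was in calu-1, 5.39 kb away with a fold of 1.70. Actin genes resemble each other closely in sequence, and the treatment of reads that match several genes is not stated in the sources used here.

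Tropomyosin and troponin I, which cover the thin filament until calcium binds troponin C, were also without a region. lev-11 (Y105E8B.1) encodes tropomyosin, has the longest span of the 10 genes (9926 bp; chromosome I, 14621169 to 14631094) and 19 RefSeq transcripts. Its nearest region was again that of fld-1, 503.0 kb away, with a fold of 1.93. unc-27 (ZK721.2; chromosome X, 8789456 to 8790621) encodes a troponin I and has the shortest span, 1166 bp. Its nearest region was in sdha-1, 245.8 kb away, with a fold of 1.82.

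unc-60 (C38C3.5), on chromosome V at 1475086 to 1479576, encodes actin depolymerizing factor/cofilin proteins, which sever and turn over actin filaments. Through alternative splicing it makes a muscle form and a form used in other tissues. Its region of 269 bp at 1477753 to 1478021 lay in the middle of the span, with the summit at 64.9% of its length from the low end. The summit held 32 reads (95% Poisson interval 21.9 to 45.2) against a control level of 13.5, which gave the fold of 2.28 and a −log10 q of 3.50. A control level of 13.5 is the lowest in the list and was shared by 304 regions. Whether it was counted at each region or is a common minimum is not stated in the sources used here. The exact values of unc-60 occurred in 19 other regions as well, because equal read numbers over this lowest level give equal folds. Exons are not in the gene table, so the region was assigned to neither form.

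unc-87 (F08B6.4), on chromosome I at 6761221 to 6767797, encodes a protein with calponin-like repeats that binds and stabilises actin filaments. It was the only one of the 10 genes with 2 regions; 1.05% of all protein-coding genes had 2 or more. The region nearer the low end, 1380 bp at 6761872 to 6763251, held 34 reads (23.5 to 47.5) against a control level of 18.5, a fold of 1.79 with a −log10 q of 1.72. The other, 273 bp at 6763950 to 6764222, held 47 reads (34.5 to 62.5) against 25.5, a fold of 1.81 with a −log10 q of 2.59.

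The unc-87 regions were separated by 698 bp and together covered 25.1% of the span. Their folds differed by 0.015, far less than the counting error of either. With the control level held fixed, the interval of the pileup gave folds of 1.26 to 2.49 for the region nearer the low end and 1.34 to 2.39 for the other.

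pat-3 (ZK1058.2), on chromosome III at 3908931 to 3914149, encodes the beta integrin subunit of the dense bodies and M-lines, which is also made in other tissues. Its region was the widest of the 5, 2009 bp at 3912131 to 3914139. It covered 38.5% of the span and ended 10 bp before its high end. The summit, at 3913727, held 48 reads (95% Poisson interval 35.4 to 63.6) against the lowest control level of 13.5. This gave the fold of 3.38, or 2.51 to 4.46 from the interval of the pileup, and a −log10 q of 11.2. The fold ranked 51st of 1207. Among the 304 regions at the same control level, 26 had this fold or a higher one, pat-3 included. The interval of its pileup overlapped that of unc-60 at the same control level, and the difference between these 2 genes was not tested.

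The surroundings of pat-3 were unlike those of the other genes. Within 250 kb on either side of pat-3 there were 39 other regions, against 0 to 13 around the other 9 genes and a median of 7 around a listed region. Of these 39, 33 (84.6%) sat at the lowest control level, against 25.2% of the whole list. Of the 85 other protein-coding genes in that window, 29 (34.1%) carried a region, against 4.77% of all. The nearest were ZK1058.3, 5.57 kb away with a fold of 1.86, and tir-1, 21.3 kb away. In bins of 500 kb, the one at chromosome III, 3500001 to 4000000, held 35 regions, the most of 196 bins with any, whose median was 6. Among its neighbours pat-3 had a high fold: their median was 2.05, and 1 of the 39 (toh-1, 4.07) was higher. The region of pat-3 thus belongs to a local cluster of regions mostly at the lowest control level, and the part of that cluster in its presence was not tested. The windows were chosen after the data were seen.

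**Figure D2:**
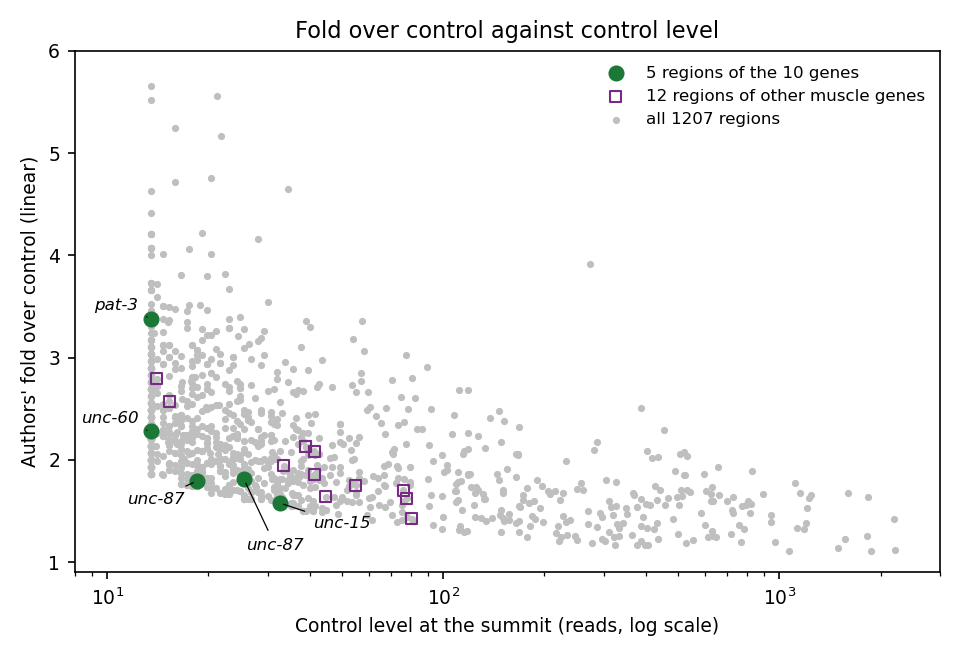
The authors' fold over control (linear vertical axis) against the control level at the summit in reads (log horizontal axis) for all 1207 regions. Green points are the 5 regions of the 10 genes, purple squares 12 regions of other muscle genes and grey points all regions. pat-3 stands high at the lowest control level, and unc-15 and both unc-87 regions lie in the lower part of the cloud.

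The folds that can enter the list depend on the control level, so each region was also set beside regions with a control level within 25% of its own. In that company the fold of pat-3 was higher than 91.6% of 418 regions and that of unc-60 higher than 37.8% of 418. The unc-87 regions exceeded 9.40% of 298 regions (low end) and 18.2% of 258 (middle). unc-15 exceeded 4.83% of 207, whose median fold was 1.99. At a like control level, 4 of the 5 regions were therefore below the middle of their company and pat-3 was near its top. These shares are descriptions without a replicate.

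The regions with values most like these were in genes of varied kinds. The nearest by fold and control level to the pat-3 region were those of acdh-1, an acyl-CoA dehydrogenase gene, and T01G1.4, 2 of 3 tied regions over a single gene with the same 48 reads and control. For unc-60 they were T06A4.3 and gsa-1, the gene of a G protein alpha subunit, 2 of 17 tied regions over a single gene. For the unc-87 region near the low end they were F10D11.6 and the filamin gene fln-1, each with 34 reads over 18.5, and for the one in the middle W08F4.3 and F21F3.6. dlc-1, a dynein light chain gene, with a fold of 1.58, and Y57E12AL.6, with 1.61, came nearest to unc-15. The likeness rests on 1 value of each measure per region.

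Several of these regions passed the authors' threshold narrowly. The lowest −log10 p in the list was 2.94. With the control level fixed, this p was reached from 51 reads for unc-15, which had 52, and from 33 reads for the unc-87 region near the low end, which had 34. The unc-87 region in the middle had 47 reads where 42 sufficed, and unc-60 had 32 where 26 sufficed. pat-3 had 48 reads where 26 sufficed. The lower end of the Poisson interval was still sufficient for pat-3 and for none of the other 4 regions. In the whole list it was sufficient for 611 of 1207 regions (50.6%), a share that rests on the recovered pileups. The recovery met the deposited −log10 p within 0.0001 in 1035 of the 1207 regions, and in 1200 it was at least 10 times nearer than the next best whole number of reads, among them all 1061 with fewer than 300 reads. The summit is the highest point of a region and was picked as such, which the intervals do not cover.

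**Figure D3:**
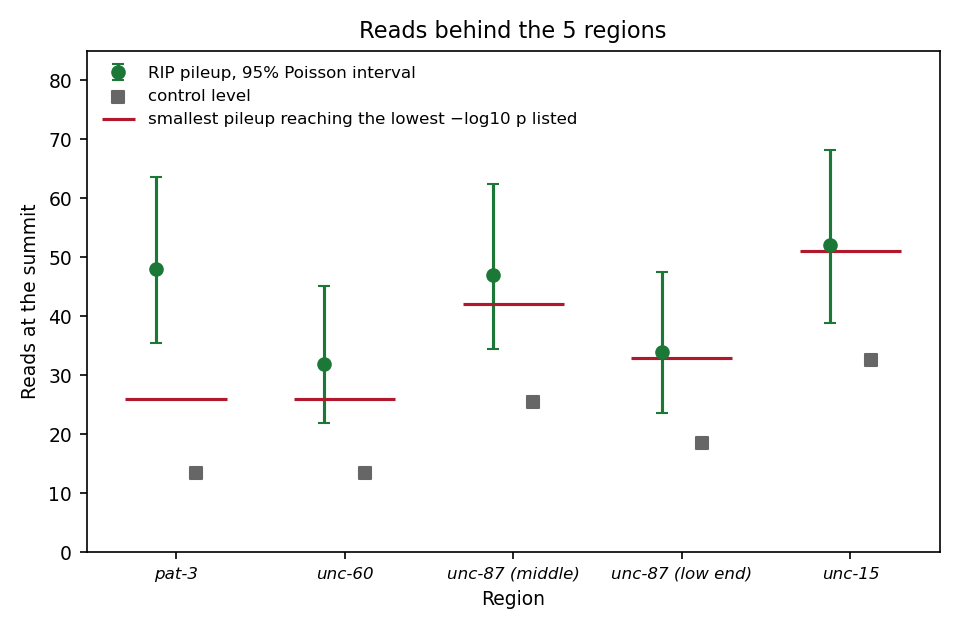
Reads at the summit (vertical axis, linear from 0) for the 5 regions, ordered by fold. Green points are RIP pileups with exact 95% Poisson intervals, grey squares are control levels, and red lines mark the smallest pileup that reaches the lowest −log10 p in the list; only the interval of pat-3 lies wholly above its line.

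With stricter thresholds pat-3 was the last to stay. At a −log10 q of at least 2, 3 genes remained (pat-3, unc-60 and unc-87), at 3 there were 2 (pat-3 and unc-60), and from 4 to 10 pat-3 alone. Of the 1207 regions, 1072 reached a −log10 q of 2, 917 reached 3, 771 reached 4 and 333 reached 10. Of the 5 regions in the 10 genes, 3, 2, 1 and 1 did. At a −log10 q of at least 5 the share was 1 of 10 genes, against 2.9% of all protein-coding genes, and at a fold of at least 2 it was 2 of 10, against 2.98%. The 10 genes were named with earlier results of these data known, so the difference between these shares was not tested.

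The summits of 4 regions lay at an edge. The summit was 2 bp and 5 bp from the nearest edge in the unc-87 regions, 5 bp in unc-15 and 21 bp in unc-60, against 412 bp in pat-3. In the whole list 202 of 1207 summits (16.7%) lay within 25 bp of an edge, a limit chosen after these values were seen. The list gives no pileup along the regions, so its shape in those 4 regions is unknown. The number in the unlabelled last column was 0 for all 5 regions, whereas it was above 0 in 299 regions (24.8%) of the list. No source used here says what that number records.

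The genes with a region were among the longer ones, as were most of the 10. By span, 8 of the 10 genes were among the longest 25% of protein-coding genes (3586 bp or more), and all 4 with a region were among these 8. Of all 4995 genes of that length, 6.77% carried a region. The shorter genes, act-1 and unc-27, had none. The other 4 long genes, unc-54, myo-3, lev-11 and act-4, had none either.

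Region numbers follow position along each chromosome, and 257 of the numbers up to 1464 do not occur in the list used here. Across all neighbouring listed regions on a chromosome, 158 of 1201 pairs (13.2%) had an absent number between them. The stretches around the genes cannot be set against this share. They were picked because they hold a gene, those with a region hold more than 1 pair, and those of unc-54 and lev-11 pass a chromosome end. Around unc-27 the listed regions on either side carried the consecutive numbers 1387 and 1388, so no number is absent there. For act-1 (1175), act-4 (1331) and myo-3 (1202) a single number was absent between the flanking regions. Numbers were absent around the 4 genes with a region too: 1 each around unc-15 and unc-60, 2 around unc-87 and 3 around pat-3. For unc-54 and lev-11, 4 numbers (229 to 232) were absent between the last region of chromosome I and the first of chromosome II. Where in those intervals the absent numbers lay is unknown, so a region called there and then dropped from the list cannot be told apart from none called.

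Partners of these genes in muscle were searched in the same way. Of 64 other muscle genes in 5 lists, 4 carried a region (6.25%), near the 4.77% of all protein-coding genes. Their 12 regions had folds of 1.42 to 2.79 with a median of 1.90. None of the 12 partners of the thick filament had one, including the pharyngeal myosin genes myo-1 and myo-2, the myosin light chain genes mlc-1, mlc-2 and mlc-3 and the myosin chaperone gene unc-45. The giant muscle genes ttn-1 (81.7 kb), unc-89 (55.2 kb) and unc-22 (38.3 kb) were in this list.

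Of the thin filament partners 1 of 16 had a region. It was pat-10, which encodes the troponin C of body wall muscle, at chromosome I, 5019395 to 5019862. Its fold was 1.62 with a −log10 q of 5.07, from 127 reads (105.9 to 151.1) against 77.9. The other troponin genes of the list, tnt-2, tnt-3, tnt-4, mup-2, tni-1, tni-3, tni-4 and tnc-2, had none.

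Of the attachment genes 2 of 18 had a region. zyx-1, which encodes zyxin of the dense body, had 2, with folds of 2.79 and 2.57, each from 41 reads (29.4 to 55.6) over control levels of 14.0 and 15.3. unc-52, the gene of basement membrane perlecan, had 7, with folds of 1.42 to 2.13. Several genes of the attachments that hold the beta integrin were without a region. They were pat-2, the alpha integrin subunit that pairs with the beta subunit, unc-112 (kindlin), pat-4 (integrin-linked kinase), pat-6 (parvin), unc-97 (PINCH), deb-1 (vinculin) and tln-1 (talin). These 7 were named after their values were seen, and with 4.77% of all protein-coding genes carrying a region, none among 7 is not set apart from the background.

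In the excitation and calcium list 1 of 15 genes had a region. It was sca-1, which encodes the calcium pump of the sarcoplasmic reticulum, with folds of 1.70 (130 reads over 76.0) and 1.64 (74 reads over 44.7). The ryanodine receptor gene unc-68 and the calcium channel gene egl-19 had none. The muscle transcription factor genes hlh-1, unc-120 and hnd-1 had none (0 of 3).

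**Figure D4:**
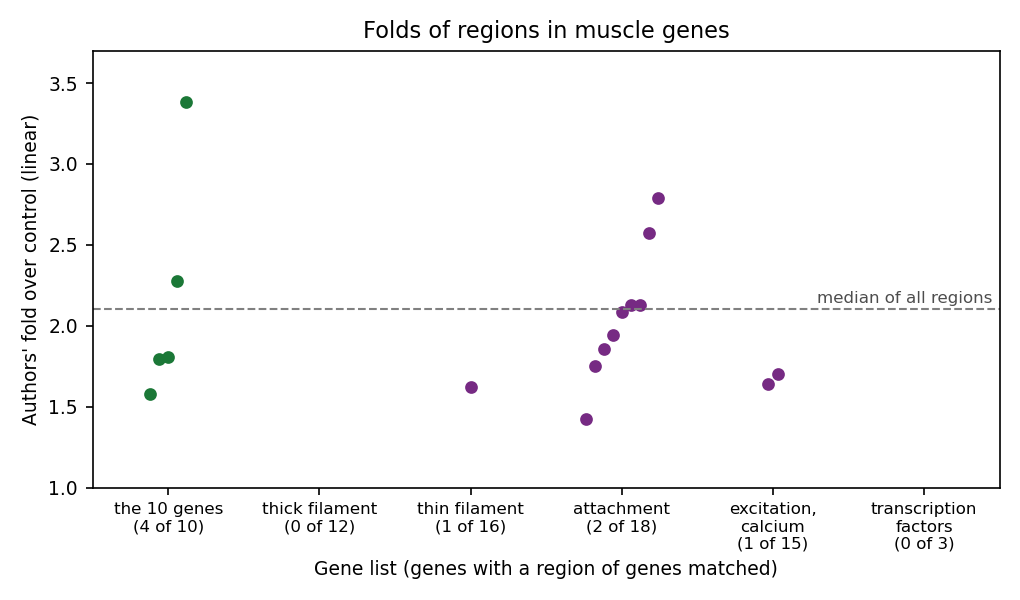
The authors' fold (linear vertical axis) of each region in the 10 genes (green) and in 5 lists of other muscle genes (purple), with the number of genes that carry a region under each name; points are spread sideways for visibility. The dashed line is the median of all 1207 regions, 2.10, and the region of pat-3 at 3.38 is above all 12 regions of the other muscle genes.

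Markers of tissues were checked because whole worms were used. Of the 6 markers of body wall muscle, 5 of which are among the 10 genes and so no separate check, only unc-15 carried a region, and none of the 5 of pharyngeal muscle did. None of 3 markers of hypodermis, 4 of intestine or 3 of germline did, and 1 of 3 neuronal markers did, snb-1 (synaptobrevin). Other genes of the same families as some markers did carry regions. They include vit-3, vit-4 and vit-5 (markers vit-2 and vit-6) and col-139, dpy-5 and dpy-13 (markers col-19 and dpy-7). The counts therefore describe the chosen markers and not the tissues. The list gives no level for a gene without a region, so an absent region does not show that the RNA was absent from the worms or from the RIP.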

How the data were processed

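One deposited table of regions was used. STAR and deepTools were run, per the submitters' processing notes; no source used here names the peak caller, its control or the genome build. The table has no header; its layout is that of MACS2 narrow peaks. The authors' deposited values per region are a start, an end, a fold (ratio over control), −log10 of the p-value and of the q-value, a score and an unlabelled number treated as a score of unknown meaning. Starts were counted from 0 and are printed from 1.

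Regions were joined to RefSeq WBcel235 gene spans with 1 shared base as the minimum; the gene table gives no strand or exons. All 10 symbols matched, as did 64 of 65 in the other muscle lists (tmd-1 did not). Pileup and control level were solved from the fold, taken as (pileup + 1) / (control + 1), and the Poisson p-value. For the 5 regions the deposited −log10 p was met within 0.0001. This recovered 100% of 500 simulated pileups made with the same formulas, which tests the solving only. Poisson intervals are exact, cover counting error only and treat the control as fixed.

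The genes and lists were chosen with earlier results of these data known, so no test over them was run. Named genes were the 10, genes with a region in the lists, the nearest genes with a region, 2 most alike regions each (fold and control level, log2 distance) and mstr-1; other list genes without a region were named after their values were seen. The planned test of RIP over input between strains needs values per library and was not run. Scripts ran under Python 3.11.15 with scipy 1.17.1, numpy 2.4.6, matplotlib 3.10.9 and pandas 2.3.3.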

Additional observations from a re-analysis of the deposited data

How the results depend on the processing

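The 4 genes and their 5 regions stayed with the summit inside the gene or without regions over several genes, and the 4 genes also with a larger shared part, the whole region inside or spans extended by 500 bases. With a −log10 q of at least 5, 1 gene (pat-3) with 1 region remained, and with a fold of at least 2 there were 2 genes with 2 regions. With at least 2 regions per gene, 1 gene remained (unc-87). Of the 64 other muscle genes, 2 had a region with a fold of at least 2, against 4 without that limit. All 4 had a region with a −log10 q of at least 5. These alternatives leave fewer regions by construction. Further alternatives were chosen after seeing the data. Keeping regions whose lower Poisson bound still passes left 1 of the 10 genes with 1 region, and an unlabelled number above 0 left 0 genes with 0 regions. Of the 4 other muscle genes with a region, the bound left 3 (all but pat-10). The unlabelled number left 3 of them too (all but zyx-1). Starts counted from 1 changed no count. Without the densest 500 kb of regions, which removes pat-3 by construction, 3 genes with 4 regions remained (unc-15, unc-60 and unc-87). All 4 other muscle genes with a region remained as well. With a control window of 50%, the share of regions with a lower fold became 6.50% and 10.96% for the unc-87 regions. The share became 4.07% for unc-15, 41.1% for unc-60 and 92.1% for pat-3. The wider window includes the narrower one, so the size of these changes was not tested. No paired analysis was possible because values per library were not part of the table, and leaving out a replicate was likewise not run.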
